A study of Mus musculus with 21 samples.

Results

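The response of mouse aortic smooth muscle cells to tumour necrosis factor alpha (TNF) after 2 h was read from a pair of Affymetrix arrays, TNF_2h and Control_2h, each from 1 sample. The TNF sample had received TNF at 1 ng/ml, and the control sample had received PBS. One more array of the same time, LTBR_2h, came from cells given 10 µg/ml of an antibody that activates LTBR, the lymphotoxin beta receptor. Smooth muscle cells are the contractile cells of the vessel wall, and all cells of the series came from aortas of C57BL/6J males aged 10 to 12 weeks and were kept in culture. They were grown in medium with 10% serum and fed 24 h before the stimulus. The whole series held 21 arrays, with further TNF, antibody and PBS arrays at 6 h (1 each) and 24 h (4 each), and 3 arrays of both agonists together at 24 h. The comparison covered every gene whose signal exceeded the array's median on the brighter of TNF_2h and Control_2h, which held for 11714 of 18193 genes. The values are linear signals, and differences are in log2(signal + 10.1), a scale that understates the change of dim genes. With 1 array per group there is no replicate and no test at 2 h, and the number of arrays limits the precision. A difference of at least 2-fold (1.0 in log2) is counted as higher or lower.

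TNF is a cytokine that activates endothelial, stromal and immune cells in inflammation. Its binding to the receptor encoded by Tnfrsf1a assembles a complex of adaptor proteins and ubiquitin ligases on the inner side of the membrane. This complex activates the kinases that mark the inhibitors of NF-kB for destruction, and NF-kB, a transcription factor, then enters the nucleus. NF-kB is known to induce chemokines and adhesion molecules that recruit leukocytes, and also its own inhibitors, which end the signal.

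The promoters of 6 genes among the 25 with the largest differences upward are shown because they hold the 10-letter consensus of kappaB, the DNA element bound by NF-kB, in the 250 bases before the RefSeq gene start. Tnfaip2 also holds a match there and is not printed. Sequences are from RefSeq (GRCm38.p6), 5′ to 3′ along the gene, and capitals mark the bases of a match on either strand, including matches that overlap.
Ccl20: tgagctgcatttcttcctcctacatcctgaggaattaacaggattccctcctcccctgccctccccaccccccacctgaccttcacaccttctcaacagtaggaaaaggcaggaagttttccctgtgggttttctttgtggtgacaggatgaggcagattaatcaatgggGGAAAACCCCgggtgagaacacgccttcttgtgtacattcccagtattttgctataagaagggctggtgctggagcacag
Nfkbie: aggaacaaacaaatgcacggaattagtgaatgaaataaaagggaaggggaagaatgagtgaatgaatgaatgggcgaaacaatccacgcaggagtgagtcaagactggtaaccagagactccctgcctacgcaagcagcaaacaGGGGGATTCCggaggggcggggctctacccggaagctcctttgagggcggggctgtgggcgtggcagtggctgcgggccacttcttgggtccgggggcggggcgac
Cxcl2: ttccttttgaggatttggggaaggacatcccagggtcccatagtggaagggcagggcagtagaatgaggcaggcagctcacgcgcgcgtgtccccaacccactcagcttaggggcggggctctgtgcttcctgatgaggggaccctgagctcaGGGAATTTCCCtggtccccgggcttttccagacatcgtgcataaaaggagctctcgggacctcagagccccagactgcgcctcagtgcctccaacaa
Tlr2: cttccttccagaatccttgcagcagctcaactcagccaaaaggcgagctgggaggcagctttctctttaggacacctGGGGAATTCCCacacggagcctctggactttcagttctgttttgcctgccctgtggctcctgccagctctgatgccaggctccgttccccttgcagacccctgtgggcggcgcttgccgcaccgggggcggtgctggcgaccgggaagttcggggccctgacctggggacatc
Tnfaip3: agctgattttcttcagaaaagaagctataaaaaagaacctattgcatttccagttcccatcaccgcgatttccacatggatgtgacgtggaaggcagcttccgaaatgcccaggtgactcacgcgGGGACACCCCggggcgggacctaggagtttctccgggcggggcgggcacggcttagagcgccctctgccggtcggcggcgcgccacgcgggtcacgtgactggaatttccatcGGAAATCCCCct
Cxcl10: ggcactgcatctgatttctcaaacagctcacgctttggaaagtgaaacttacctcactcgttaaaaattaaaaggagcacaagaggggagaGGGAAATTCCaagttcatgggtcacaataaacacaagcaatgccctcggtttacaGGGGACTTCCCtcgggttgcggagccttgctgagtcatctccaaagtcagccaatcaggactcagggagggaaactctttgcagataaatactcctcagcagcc
They lie at chr1:83116516-83116765 on the + strand (Ccl20), chr17:45555450-45555699 on the + strand (Nfkbie), chr5:90903649-90903898 on the + strand (Cxcl2), chr3:83841609-83841858 on the - strand (Tlr2), chr10:19015411-19015660 on the - strand (Tnfaip3), chr5:92348890-92349139 on the - strand (Cxcl10). In the whole window of 300 bases, which adds 50 bases after the start, the consensus occurred in 29 of the 127 genes at least 2-fold higher that had a promoter in the table (22.8%). It occurred in 21 of 55 such genes (38.2%) whose TNF_2h signal was above 4 times the array median, and in 8 of 16 (50%) of the top 25. The share was 12.6% of 9455 matched genes above the median, and 9.6% of all 27025 genes in the table. The AP-1 motif TGANTCA, searched on both strands, occurred in 15.7% of the genes at least 2-fold higher. It occurred in 13 of the 55 (23.6%) with a TNF_2h signal above 4 times the array median, and in 7 of 16 (43.8%) of the top 25. The share for AP-1 was 6.3% of the genes above the median and 9.0% of all genes in the table. Among the genes at least 2-fold lower the consensus of kappaB occurred in 8 of 59 matched genes (13.6%), and AP-1 in 8.5%. A match is a description of letters and not of a bound site.

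At 2 h, 181 of the 11714 genes (1.55%) were at least 2-fold higher in TNF_2h than in Control_2h, and 73 (0.623%) were at least 2-fold lower. Of the higher genes 33 reached 4-fold and 13 reached 8-fold, and 10 of the lower genes reached 4-fold. The median difference over all genes was -0.04 in log2 and the SD was 0.36. For scale, LTBR_2h was at least 2-fold above Control_2h in 56 genes (0.48%) and below it in 54 (0.463%). The untreated arrays Control_6h and Control_2h also differed, with 48 genes (0.414%) at least 2-fold higher and 69 (0.595%) at least 2-fold lower in Control_6h. The number of lower genes with TNF was thus close to the number by which untreated arrays of different times differed, and the number of higher genes exceeded it. Against LTBR_2h in place of Control_2h, TNF_2h was at least 2-fold higher in 125 genes (1.07%) and lower in 71 (0.606%).

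**Figure D1:**
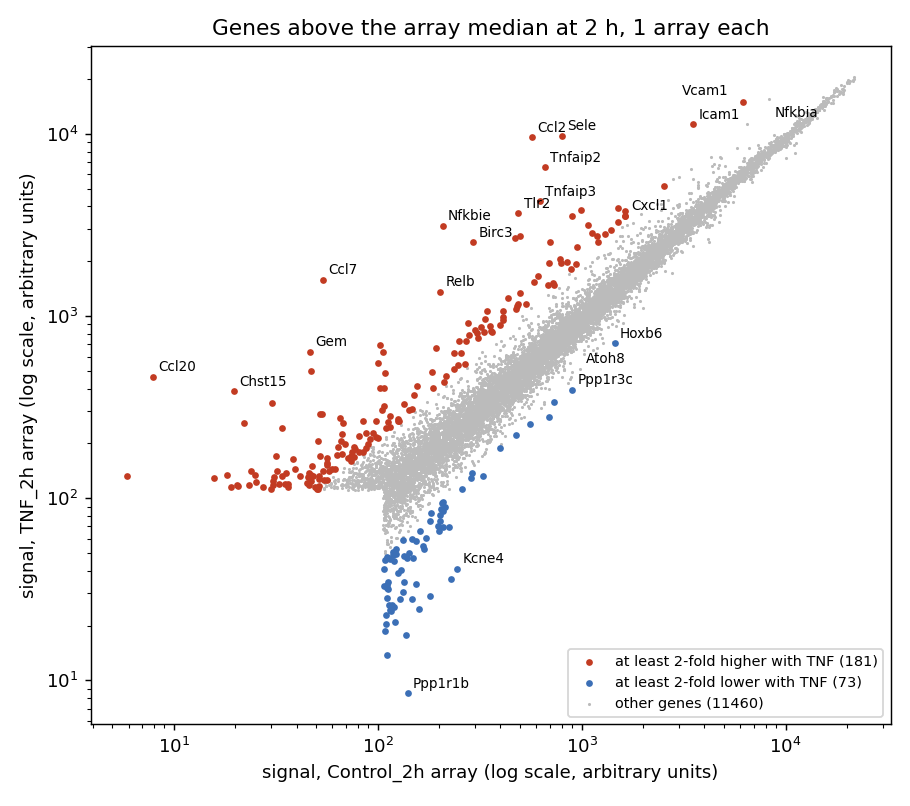
Signal of each of the 11714 genes on TNF_2h (y axis) and Control_2h (x axis), both in arbitrary units on log scales, with the 181 genes at least 2-fold higher and the 73 at least 2-fold lower in colour. Genes such as Ccl2, Sele and Tnfaip2 lie far above the diagonal at high signal, and most lower genes lie at low signal.

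The higher genes held bright and dim ones. In 79 of the 181 the TNF_2h signal was above 4 times its array median of 111.4, and 76 of those 79 exceeded all 6 control arrays of 2, 6 and 24 h. In 71 of the 181 it was under 2 times the median, and 26 of those 71 exceeded all 6 control arrays. In all, 125 of the 181 exceeded every control array, and TNF_2h was above every control array in 11.1% of the 11714 genes at any size. TNF_2h was the highest of all 21 arrays in 75 of the 181 genes and in 4.7% of the 11714. These counts describe the genes and are no separate support, since the same TNF_2h signal chose them. For the lower genes the picture was different: 58 of 73 had a Control_2h signal under 2 times its array median of 106.5, and 6 had one above 4 times the median. Both arrays were above their median in 88 of the 181 higher genes and 11 of the 73 lower ones. Genes just inside the limit were Nr4a2 (1.0013), Gabrp (1.0015) and Angptl4 (1.007), and just outside were Hp (0.9991), Mt2 (0.998) and Eda (0.9967). On the lower side Hoxb5 (-1.02) lay just inside and Tmem151a (-0.998) just outside.

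Several probe sets of one gene check the probes, since they are read on the same pair of arrays, but not the culture. Of the 181 higher genes 43 had at least 1 other probe set above the median. In 40 of these 43 (93.0%, exact binomial 95% interval 80.9 to 98.5, counting error only) all the others were also higher, against 33.9% of the 5390 genes with another probe set. Another probe set reached 2-fold in 24 of the 43 (55.8%), against 1.4% of all such genes. Nfkbie gave 3.85 and 3.59 on its probe sets, Tnfaip2 gave 3.30 and 2.75, and Gbp2 gave 2.48 on both. The exceptions were Egr3, at 1.39 with -1.16 on its other probe set, Il18rap, at 1.05 with -0.60 on the other, and Hivep3, at 1.38 with -0.21 to 0.78. Il18rap and Hivep3 were named after their values were seen. Of the 73 lower genes 5 had another probe set above the median, and in 4 it was lower too (exact binomial 95% interval 28.4 to 99.5%). All other probe sets were lower in 43.3% of the 5390 genes, a share inside that interval, so 5 genes are too few to show agreement.

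**Figure D2:**
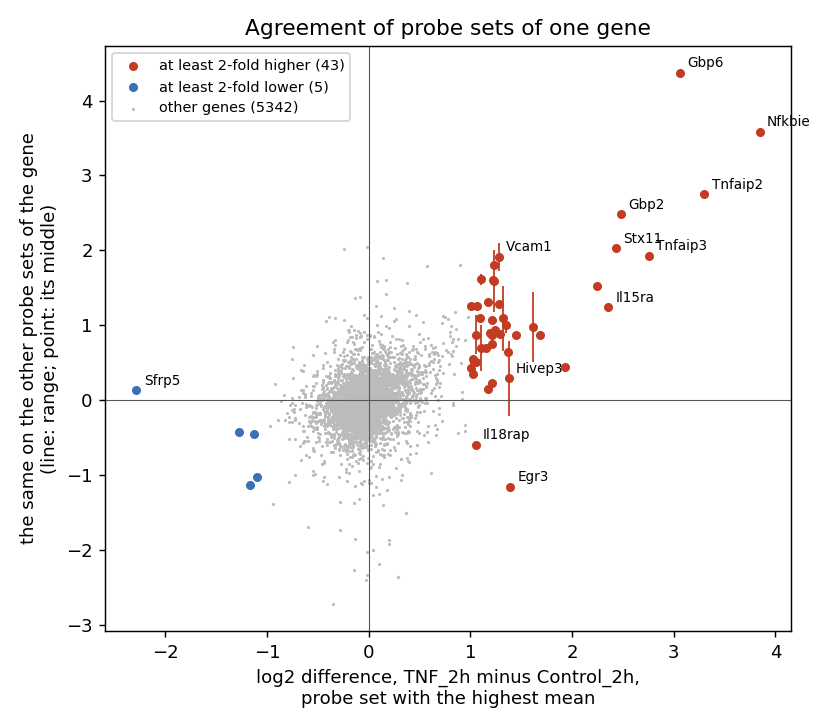
Log2 difference between TNF_2h and Control_2h on the probe set with the highest mean of each gene (x axis) and on its other probe sets (y axis, line for their range and point for its middle). Of 43 genes at least 2-fold higher 40 lie wholly above 0 on the y axis, and Egr3, Il18rap and Hivep3 do not.

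Chemokines, the secreted proteins that attract leukocytes, held the largest differences. Of 20 inflammatory chemokines on the array 13 were above the median, and 9 of these were at least 2-fold higher (background 1.55%), with a list median of 1.32 against -0.04 for all genes. Ccl20, which attracts lymphocytes and dendritic cells through Ccr6, had a signal of 464.8 in TNF_2h, 15.4 in LTBR_2h and 7.9 in Control_2h, a difference of 4.72 in log2. The control signal of Ccl20 was below the pseudocount, and its range over the 6 control arrays was 7.9 to 20.8. Ccl7, an attractant of monocytes, had 1585.8 in TNF_2h, 99.5 in LTBR_2h and 53.7 in Control_2h, a difference of 4.64. Ccl2, the main monocyte attractant, had 9566.2 in TNF_2h, 1523.4 in LTBR_2h and 568.0 in Control_2h, a difference of 4.05. The TNF_2h signal of Ccl2 exceeded the highest of the 6 control arrays, 689.5, and LTBR_2h also lay above it. The attractants of neutrophils Cxcl2 and Cxcl1 differed in size. Cxcl2 had 502.5 in TNF_2h, 103.4 in LTBR_2h and 47.0 in Control_2h, a difference of 3.17, and Cxcl1 had 3550.7, 2139.2 and 1640.6 on the same arrays, a difference of 1.11. Both other probe sets of Cxcl1 gave larger values, 1.54 and 1.68. Cxcl10 and Ccl5, attractants of activated T cells, had differences of 2.65 and 2.53. Cxcl10 had 698.1 in TNF_2h, 91.4 in LTBR_2h and 102.8 in Control_2h, and Ccl5 had 244.3, 7.4 and 34.0 on the same arrays. The membrane-bound chemokine Cx3cl1 had 2384.0 in TNF_2h, 964.8 in LTBR_2h and 949.8 in Control_2h (1.32), and Ccl9 had 1481.0, 651.7 and 687.5 (1.10). All 9 exceeded every one of the 6 control arrays. Ccl20, Ccl7, Cxcl2, Cxcl10 and Ccl5 had Control_2h signals under the array median of 106.5 and entered the list through TNF_2h only. The filter thus raised the share of higher genes and the list median. The other 7 chemokines on the array, Ccl3, Ccl11, Ccl12, Ccl22, Cxcl3, Cxcl9 and Cxcl11, had signals of 2.5 to 36.8 in TNF_2h and 2.9 to 63.6 in Control_2h, all below the medians.

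**Figure D3:**
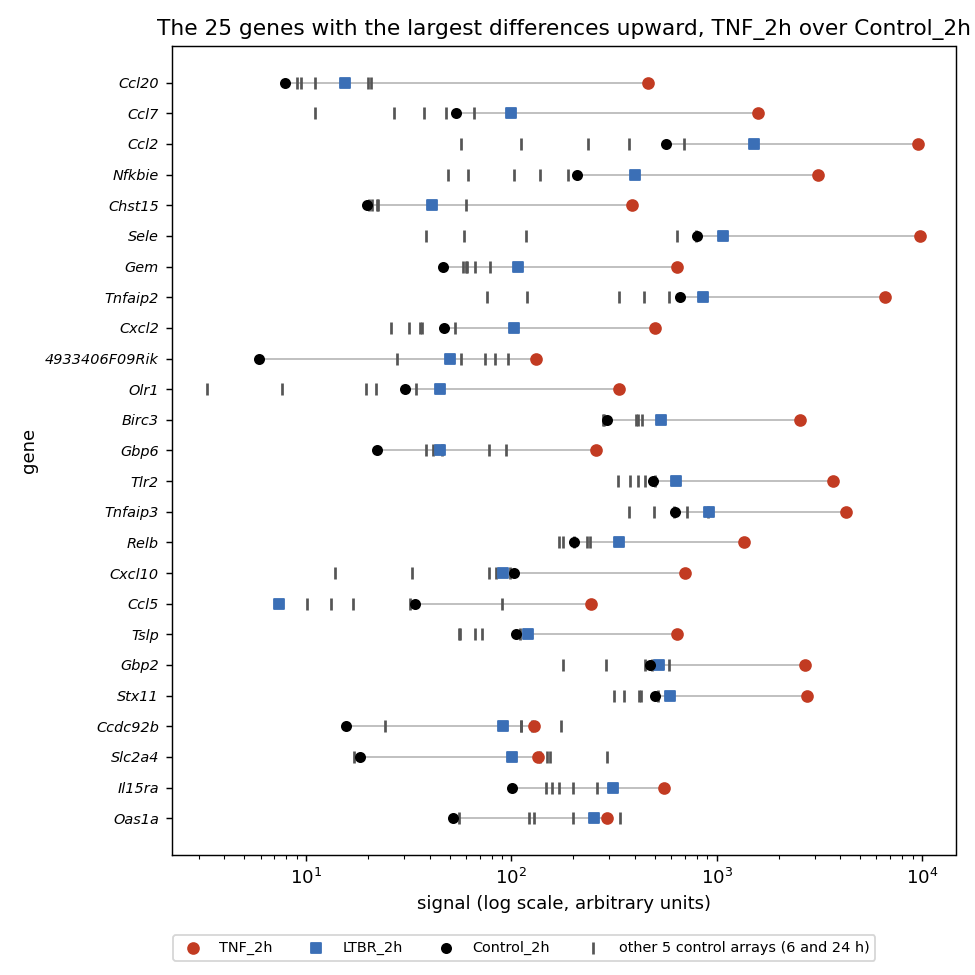
Signal (log scale, arbitrary units) of the 25 genes with the largest differences upward, on TNF_2h, LTBR_2h, Control_2h and the other 5 control arrays. TNF_2h lies right of every control array in 22 of the 25, and not in Ccdc92b, Slc2a4 and Oas1a.

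Some genes on the list of NF-kB inhibitors and feedback genes were higher. Of 14 such genes above the median 6 were at least 2-fold higher, with a list median of 0.92. The 6 include Tnfaip2 (3.30), a TNF-induced gene rather than an inhibitor. Nfkbie, which encodes the inhibitor IkB epsilon, had 3128.6 in TNF_2h, 400.0 in LTBR_2h and 208.3 in Control_2h, a difference of 3.85. The 6 control arrays of Nfkbie spanned 49.1 to 208.3, and no other array of the series exceeded 2117.8. Tnfaip3, a ubiquitin-editing enzyme that ends TNF signalling, had 4275.1 in TNF_2h, 915.8 in LTBR_2h and 625.0 in Control_2h, a difference of 2.75. Tnip1, its binding partner, had 3551.2, 1901.6 and 1627.9 on the same arrays (1.12). Bcl3 and Nfkbiz, IkB family members that act in the nucleus, had differences of 1.35 and 1.06. Nfkbia, the classic inhibitor of NF-kB, had 15504.5 in TNF_2h, 11293.6 in LTBR_2h and 8288.5 in Control_2h on its brightest probe set, a difference of 0.90 that lies under 2-fold. Its other 4 probe sets gave 1.45 to 2.17, so the size for Nfkbia depended on the probe set.

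Subunits of NF-kB were higher unequally. Of 10 subunits and kinases 4 were at least 2-fold higher, with a median of 0.77. Relb, a subunit of the non-canonical pathway, had 1359.7 in TNF_2h, 335.9 in LTBR_2h and 202.7 in Control_2h, a difference of 2.69. Nfkb2, which encodes the precursor that pairs with Relb, had 912.9, 361.2 and 277.2 (1.68). Rel had 133.1 in TNF_2h, 70.8 in LTBR_2h and 34.0 in Control_2h (1.70), a dim gene whose highest control array was 115.0. The kinase gene Map3k8 had 207.1, 63.0 and 66.4 (1.51). Rela, the main activating subunit, had a difference of 0.75, while the kinase genes Ikbkb (0.03) and Map3k14 (0.00) differed little.

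The receptors themselves stood near their control level. Tnfrsf1a, the main TNF receptor of stromal cells, had 2440.4 in TNF_2h, 2587.3 in LTBR_2h and 2718.3 in Control_2h, a difference of -0.15. Tnfrsf1b, the second TNF receptor, had 324.8, 228.4 and 230.0 (0.48). Its TNF_2h signal lay under the highest control array, 328.3. Ltbr had 1417.6 in TNF_2h, 1378.8 in LTBR_2h and 1544.1 in Control_2h (-0.12). Of 19 members of the receptor complex 2 were at least 2-fold higher, and both encode ubiquitin ligases that protect cells from death. Birc3 had 2552.3 in TNF_2h, 536.2 in LTBR_2h and 293.1 in Control_2h, a difference of 3.08, and its relative Birc2 had 3534.0, 1216.1 and 893.8 (1.97). The adaptors Tradd (-0.20) and Traf2 (0.42) were not among them, and the list median was 0.05. Of 15 members of the TNF superfamily the death receptor gene Fas was at least 2-fold higher, with 3278.9 in TNF_2h, 1498.2 in LTBR_2h and 1504.2 in Control_2h (1.12). Tnf itself had signals of 11.1 in TNF_2h, 6.9 in LTBR_2h and 14.1 in Control_2h, all far below the medians. Of 25 apoptosis regulators the protease gene Casp4 (1347.7, 507.6 and 500.9, difference 1.41) and Bid, which links death receptors to mitochondria (1062.5, 374.4 and 410.7, difference 1.35), were at least 2-fold higher, with a list median of -0.03.

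Of 13 leukocyte adhesion molecules 3 were at least 2-fold higher. Sele, which encodes the E-selectin of activated endothelium, had 9762.7 in TNF_2h, 1074.4 in LTBR_2h and 799.0 in Control_2h, a difference of 3.59. Icam1, a ligand of leukocyte integrins, had 11281.6, 4709.9 and 3521.2 on the same arrays (1.68). Vcam1, a ligand of integrins on lymphocytes and monocytes, had 15019.6 in TNF_2h, 8063.5 in LTBR_2h and 6191.1 in Control_2h (1.28), and its other probe sets gave 1.72 and 2.10. Selp, P-selectin, lay under 2-fold with 7477.8, 4099.7 and 4292.3 (0.80). These genes were also high in untreated cells of the arrays numbered 0. The control arrays numbered 0 had 637.1 to 799.0 for Sele, against 38.2 to 117.7 in the control arrays numbered 1 to 3, and 3521.2 to 3916.4 for Icam1, against 268.7 to 662.3. Tnfaip2, a TNF-induced gene of endothelium and myeloid cells with a difference of 3.30 (6585.2 in TNF_2h, 859.8 in LTBR_2h, 659.4 in Control_2h), had 444.0 to 659.4 in control arrays numbered 0 and 76.2 to 335.9 in those numbered 1 to 3.

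All arrays of 2 and 6 h carry the number 0, and these arrays held more signal of endothelial markers. The summed signal of 20 markers was 23750.1 in TNF_2h, 24889.3 in LTBR_2h and 25717.2 in Control_2h. It was 23459.0 to 28752.6 over all arrays numbered 0 and 3524.8 to 7092.4 over those numbered 1 to 3. Of the 20 markers 17 were above the median on each 2 h array, with Pecam1 at 3727.0 in TNF_2h and 4198.0 in Control_2h, against 40.3 to 375.5 in arrays numbered 1 to 3, and none was at 0. The ranges of Eng, Erg, Kdr, Cldn5, Robo4 and Mmrn1 overlapped between arrays numbered 0 and those numbered 1 to 3. The 8 smooth muscle markers summed to 45536.7 in TNF_2h, 45728.8 in LTBR_2h and 48853.9 in Control_2h, with Acta2 at 17285.0 in TNF_2h and 18328.9 in Control_2h. Myh11, a marker of differentiated smooth muscle, was 155.9 in TNF_2h and 185.6 in Control_2h, against 529.2 to 3337.8 in arrays numbered 1 to 3. The other smooth muscle markers had ranges that overlapped between arrays numbered 0 and those numbered 1 to 3. The sum of the 8 overlapped too, at 41258.7 to 48853.9 in arrays numbered 0 and 36062.2 to 61075.1 in those numbered 1 to 3. Macrophage markers were above the median for 4 of 14 genes in TNF_2h and 3 of 14 in Control_2h (summed 1547.6 and 1392.4), with Ptprc at 24.1 and 45.0. Their sum was 1381.1 to 1697.4 over all arrays numbered 0 and higher, 1823.9 to 5176.8, over those numbered 1 to 3. Lymphocyte markers were above the median for 2 of 8 genes on both arrays (summed 574.1 and 693.2). Adventitial fibroblast markers summed to 11654.5 in TNF_2h and 11053.1 in Control_2h, and adipocyte markers to 1954.2 and 2335.5. The part of endothelial RNA in the 2 h differences was not tested. All control arrays numbered 0 were above all numbered 1 to 3 in 46 of the 181 higher genes (25.4%), against 16.4% of the 11714 genes. For genes with a TNF_2h signal above 4 times the median it was 35 of the 79 higher ones (44.3%), against 20.4% of all 7057 such genes. In such bulk samples more cells of a type and more RNA per cell cannot be told apart.

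Among cytokines and growth factors 3 of 19 were at least 2-fold higher. Tslp, a cytokine that acts on dendritic cells, had 637.5 in TNF_2h, 120.8 in LTBR_2h and 105.8 in Control_2h, a difference of 2.48. Il6, a driver of the acute phase, had 733.2, 270.9 and 250.1 (1.51), and its relative Lif had 494.7, 161.6 and 184.4 (1.38). The growth factor gene Ereg lay under 2-fold, at 6399.5 in TNF_2h, 3909.0 in LTBR_2h and 3436.7 in Control_2h (0.90). Of 20 pattern receptors and adaptors 2 were at least 2-fold higher. Tlr2, a receptor of bacterial lipoproteins, had 3686.1 in TNF_2h, 631.6 in LTBR_2h and 489.8 in Control_2h, a difference of 2.89, and its 6 control arrays lay between 331.5 and 501.7. The soluble receptor Ptx3 had a difference of 1.21 on its brightest probe set and 0.23 on the other.

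Of 32 interferon-stimulated genes 10 were at least 2-fold higher, 9 of them above every control array, with a list median of 0.52. The guanylate-binding protein gene Gbp2, a defence gene induced by interferon gamma, had 2677.1 in TNF_2h, 520.8 in LTBR_2h and 471.1 in Control_2h, a difference of 2.48. Gbp6 had 259.3, 44.8 and 22.2 on the same arrays (3.06), with 4.38 on its other probe set. The transcription factor gene Irf1 had 2064.6 in TNF_2h, 908.3 in LTBR_2h and 782.3 in Control_2h (1.39), and its 6 control arrays lay between 746.7 and 886.2. Others were Parp14 (1.81), the immunity-related GTPase genes Ifi47 (1.56), Iigp1 (1.19) and Irgm1 (1.07), Gbp3 (1.41) and Trim21 (1.28). Oas1a, at 2.28, was the exception to the control range, with 291.2 in TNF_2h, 251.7 in LTBR_2h and 51.9 in Control_2h but up to 338.7 in another control array. Of 15 MHC class I and immunoproteasome genes 2 were at least 2-fold higher, both subunits of the immunoproteasome, which cuts proteins into peptides for presentation. Psmb8 had 306.7 in TNF_2h, 119.7 in LTBR_2h and 105.0 in Control_2h (1.46), and Psmb10 had 885.2, 366.8 and 355.7 (1.29). Of 13 complement and acute phase genes Lcn2 (1.46), Steap4 (1.23) and Ptx3 were at least 2-fold higher. Lcn2, an iron-binding acute phase protein, had 789.1 in TNF_2h and 280.7 in Control_2h, with control arrays up to 742.3. The metalloreductase gene Steap4 had 327.6 in TNF_2h, 175.7 in LTBR_2h and 134.0 in Control_2h, but reached 611.6 in another control array.

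Immediate early transcription factors, which cells switch on without new protein synthesis, were mostly moderate at 2 h. Of 35 such genes 6 were at least 2-fold higher and 28 were above 0, with a list median of 0.36. Egr2 had 281.5 in TNF_2h, 169.2 in LTBR_2h and 114.8 in Control_2h (1.22, and 1.61 on its other probe set). Fosl1, a partner of Jun in AP-1, had 899.2, 602.5 and 398.1 (1.16). The growth regulator Myc had 1159.4 in TNF_2h, 571.4 in LTBR_2h and 536.1 in Control_2h (1.10). Ifrd1 (1.02) and Nr4a2 (1.00) were at the limit, and Egr3 (1.39) had probe sets of opposite direction. Among the classic members Fos (-0.11) and Egr1 (-0.02) were near 0, and Jun was at 0.26. Others lay higher but under 2-fold, such as Bhlhe40 (0.74) and Cebpb (0.64). Junb had 960.2 in TNF_2h, above the control arrays numbered 0 (430.3 to 598.8). On a list of 28 genes, mostly of MAPK phosphatases, SOCS proteins and mRNA decay, Rasgef1b (191.1, 98.5 and 63.8 on TNF_2h, LTBR_2h and Control_2h, difference 1.45) and Dusp16 (1924.4, 844.3 and 942.5, difference 1.02) were at least 2-fold higher. Dusp16 encodes a phosphatase of stress-activated kinases, and Rasgef1b belongs to none of these classes. Has1, a hyaluronan synthase, had 225.6 in TNF_2h, 43.6 in LTBR_2h and 67.1 in Control_2h (1.61), but reached 240.2 in another control array. Sp5, a Wnt target, had 136.9, 88.0 and 35.4 (1.69).

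In all 56 of the 181 higher genes belonged to one of the lists and 125 to none. Chst15, a sulfotransferase that modifies chondroitin sulfate, had 386.3 in TNF_2h, 41.1 in LTBR_2h and 19.8 in Control_2h, a difference of 3.73. Gem, a small GTPase that limits calcium channels, had 637.3, 107.5 and 46.6 (3.51). Stx11, a syntaxin of vesicle fusion, had 2752.6 in TNF_2h, 595.0 in LTBR_2h and 500.9 in Control_2h (2.43, and 2.03 on its other probe set). Olr1, a receptor of oxidized lipoprotein, had 334.2, 44.9 and 30.3 (3.09). Il15ra, the receptor subunit that presents interleukin 15, had 555.4 in TNF_2h, 312.5 in LTBR_2h and 100.6 in Control_2h (2.35). Control_2h was the lowest of the 6 control arrays for Il15ra, whose highest was 261.1. A few dim genes of the top 25 rested on a low Control_2h signal. Ccdc92b had 128.8 in TNF_2h and 15.7 in Control_2h, Slc2a4 had 134.8 and 18.2, and other control arrays reached 174.9 and 291.0 for these genes. The uncharacterized gene 4933406F09Rik had 132.0 in TNF_2h and 5.9 in Control_2h, and up to 96.3 in other control arrays. Several bright genes outside the lists are given with the remark that they were chosen after their values were seen. Rnd1, a GTPase that loosens the actin cytoskeleton, had 3829.3 in TNF_2h, 1121.4 in LTBR_2h and 996.3 in Control_2h (1.93). Noct, a circadian phosphatase, had 2538.1, 855.3 and 703.2 (1.84). Malt1, a protease of NF-kB signalling in lymphocytes, had 670.1, 257.8 and 192.5 (1.75). The transcription factor genes Zbtb46 (1071.2, 421.1 and 343.5, difference 1.61) and Nfatc1 (1159.1, 494.9 and 488.6, difference 1.23) were higher too, and all 4 other probe sets of Nfatc1 gave 1.17 to 2.0.

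No gene of the structural and growth lists was at least 2-fold higher or lower. These lists held 21 contractile, 23 extracellular matrix and 28 cell cycle genes and 21 BMP and TGF-beta targets. They also held 14 sterol, 14 matrix protease and 18 ribosomal protein genes. Over all genes 1.55% were higher and 0.623% lower, so a list of this size with none is not unusual. The list medians were, in this order, -0.08, -0.08, -0.17, -0.27, -0.09, -0.03 and -0.07, against -0.04 for all genes. Of the 28 cell cycle genes 27 were below 0, most by small amounts, a larger share than the 6797 of all 11714 genes below 0. Ccne1, a cyclin that drives entry into DNA replication, had 235.1 in TNF_2h, 395.2 in LTBR_2h and 396.1 in Control_2h (-0.73), and Mcm4 was the member above 0 (0.51). Of the 21 BMP and TGF-beta targets 17 were below 0. Atoh8, a BMP target, had 513.1 in TNF_2h, 804.8 in LTBR_2h and 984.6 in Control_2h (-0.93), below all 6 control arrays (703.7 to 1109.3). Id2, an inhibitor of differentiation factors, had 2666.1, 4193.8 and 4181.5 (-0.65, and -1.05 and -0.10 on other probe sets), also below all 6 control arrays. Smad7, which inhibits TGF-beta signalling, had 2538.7, 7847.5 and 4204.1 (-0.73, and -0.07 on its other probe set), within its control range of 2053.0 to 4363.8. Hey2, a Notch target, had 720.4 in TNF_2h, 1282.6 in LTBR_2h and 1423.5 in Control_2h (-0.97), below the lowest control array, 888.2. Of the 6 lymphoid stroma factors none was 2-fold different, and Cxcl12, a lymphocyte attractant of stroma, had 17401.4 in TNF_2h, 18096.9 in LTBR_2h and 19328.6 in Control_2h (-0.15).

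**Figure D4:**
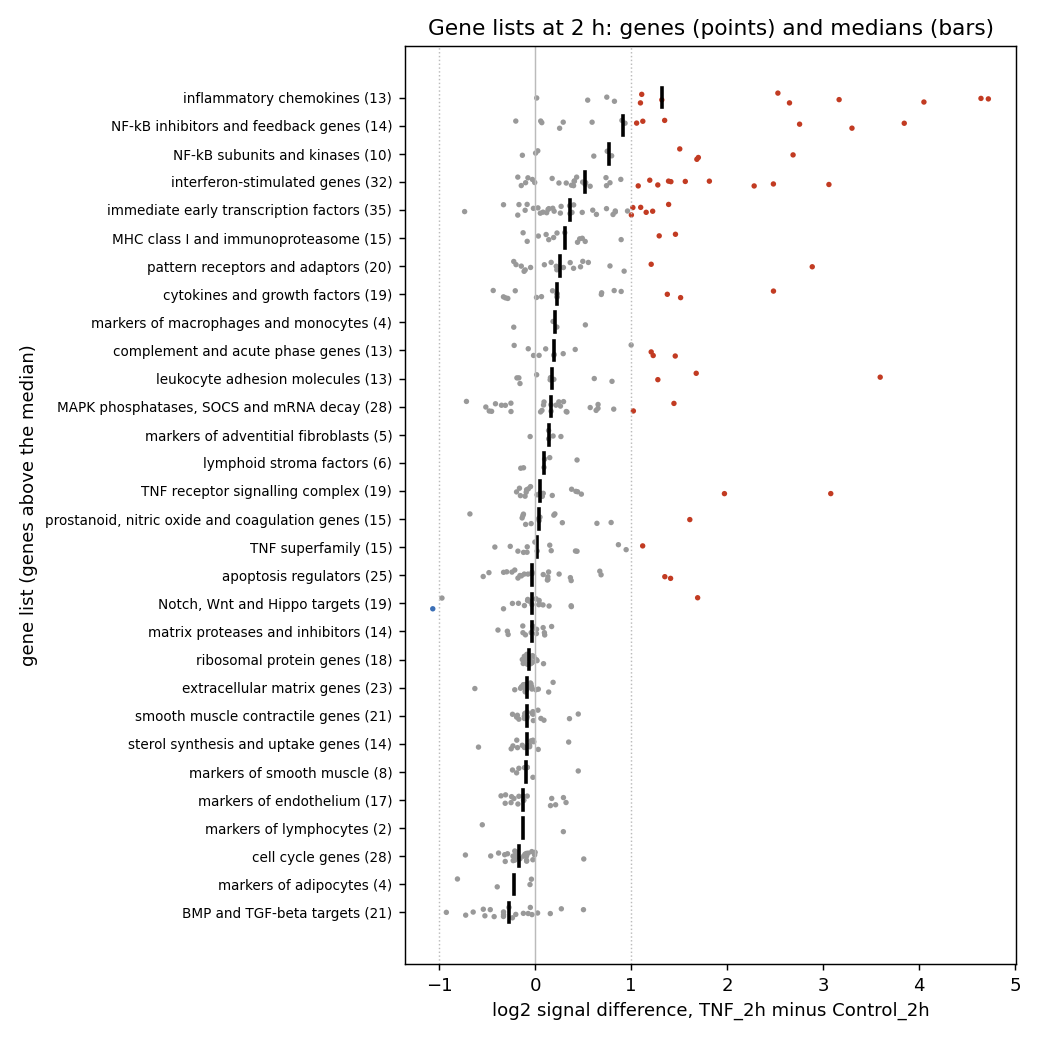
Log2 difference between TNF_2h and Control_2h for each gene above the median in each list (points) with the list median (black bar), where dotted lines mark 2-fold. Chemokines have the highest median (1.32), NF-kB inhibitors and feedback genes the next (0.92), and BMP and TGF-beta targets the lowest (-0.27). Several chemokines passed the filter through TNF_2h only, which raises their median.

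The genes with the largest differences downward were dim. Ppp1r1b, a phosphatase inhibitor, had 8.5 in TNF_2h, 58.1 in LTBR_2h and 140.0 in Control_2h, a difference of -3.01, and its control arrays ranged from 27.5 to 140.0. Kcne4, a potassium channel subunit, had 41.1, 243.1 and 245.9 (-2.32), below all control arrays, of which Control_2h was the lowest. The other 8 of the 10 largest, Trim43a, Ankrd9, Cphx3, Ano8, Sfrp5, Vmn1r44, Spag4 and Dnah6, had Control_2h signals of 108.1 to 227.5 and TNF_2h signals of 13.8 to 36. Sfrp5 gave -2.28 on this probe set and 0.13 on its other. Of the 73 lower genes 46 lay below all 6 control arrays (0.393% of the 11714 genes met both criteria, and 20.0% were below every control array at any size), and 33 were also at least 2-fold under LTBR_2h. As the same TNF_2h signal chose these genes, both counts are descriptions. Nkd2, a Wnt inhibitor, was the lower gene found in a list, with 47.5 in TNF_2h, 89.9 in LTBR_2h and 110.7 in Control_2h (-1.07). Among the brighter lower genes, chosen after their values were seen, Ppp1r3c, which targets a phosphatase to glycogen, had 393.4, 815.4 and 894.5 (-1.16, and -1.13 on its other probe set). The homeobox gene Hoxb6 had 708.4 in TNF_2h, 1139.9 in LTBR_2h and 1449.9 in Control_2h (-1.02), and Dlx5 had 337.6, 794.1 and 731.0 (-1.09).

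The array LTBR_2h gives a second stimulus of the same time. The LTBR_2h signal was at least 2-fold above Control_2h in 32 of the 181 genes (background 0.359%), but both differences share the array Control_2h, so a low control signal raises both. TNF_2h was at least 2-fold above LTBR_2h in 88 of the 181 genes, in 60 of the 79 bright ones and in 21 of the 25 largest, against 1.14% of the 11714 genes. That contrast shares the array TNF_2h with the choice of the genes, so a high TNF_2h signal raises both. Among those 25, LTBR_2h was above Control_2h in 23, and at least 2-fold so in 7.

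At 6 h, 248 genes (2.13%) were at least 2-fold higher in TNF_6h than in Control_6h and 64 (0.549%) lower, again with 1 array each. Of the 181 genes higher at 2 h, 69 (38.1%) were at least 2-fold higher at 6 h, against 1.91% of all 11714 genes. Another 85 lay between 0 and 2-fold, 27 lay below 0, and 35 had a larger difference at 6 h than at 2 h. In the 24 h pair numbered 0, 20 of the 181 were at least 2-fold higher (background 0.674%). The lists differed in course. The median of the immediate early genes was 0.36 at 2 h and 0.00 at 6 h, with 6 and 1 genes at least 2-fold higher. For NF-kB inhibitors and feedback genes it was 0.92 and 0.68, with 6 genes at both times. For chemokines it was 1.32 and 1.82, with 9 genes at both times. For interferon-stimulated genes it was 0.52 at 2 h and 1.09 at 6 h, with 10 and 18 genes, and for complement and acute phase genes 0.20 and 0.82, with 3 and 6 genes. For MHC class I and immunoproteasome genes it was 0.31 and 0.74, with 2 and 5 genes. Single genes differed in the same way: Sele stood at 3.59 at 2 h and 1.80 at 6 h, Gem at 3.51 and 1.34, and Il15ra at 2.35 and 0.51. Ccl5 stood at 2.53 at 2 h and 4.07 at 6 h, Psmb8 at 1.46 and 2.74, and Hp, the plasma protein haptoglobin, at 1.00 and 2.86. Of the 73 genes lower at 2 h, 5 were at least 2-fold lower at 6 h, against 58 of all 11714 genes. Of the same 73 genes 43 were above 0 at 6 h, where the median of all 11714 genes was -0.001.

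**Figure D5:**
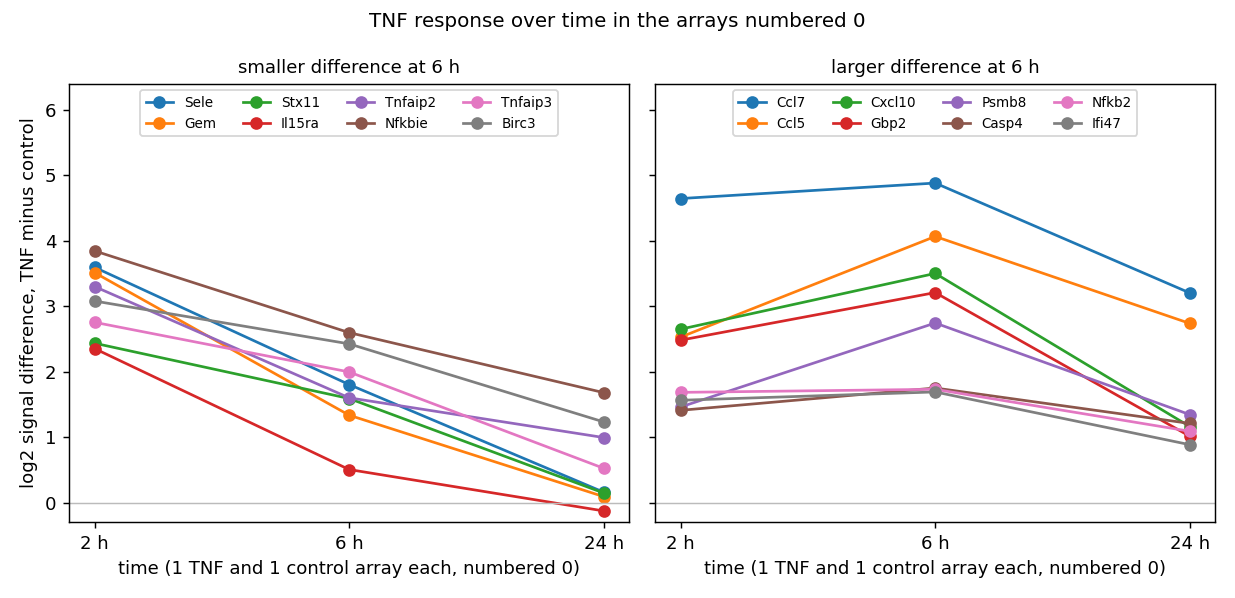
Log2 difference between the TNF array and the control array numbered 0 at 2, 6 and 24 h (x axis) for 16 genes at least 2-fold higher at 2 h, with 1 array per treatment and time. Genes on the left, such as Sele and Gem, have a smaller difference at 6 h than at 2 h, and those on the right, such as Ccl5 and Psmb8, a larger one.

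Replicates exist at 24 h, with 4 arrays each for TNF and the control, and their TNF differences did not enter the rule for the 2 h genes. Their signals did set the pseudocount and, with those of the other arrays, the probe set of each gene. The labels do not say whether the replicate numbers are separate cultures or animals, so a p-value reflects only how these samples vary among themselves, which may be technical. In limma, over 12437 genes tested, 42 (0.338%) rose at an adjusted p under 0.05 and 0 fell, with 583 genes at an unadjusted p under 0.05. Under a replicate block, 380 genes (3.06%) rose and 360 (2.89%) fell. Of the 181 genes higher at 2 h, 157 were tested at 24 h, and 18 (11.5%) rose, or 57 (36.3%) with the replicate block, in which 2 fell. Of the 157 genes 71 (45.2%) were higher with TNF in all 4 pairs of same-numbered arrays, against 10.8% of the 11526 genes above the median at 2 h that were tested. The 18 were the chemokine genes Ccl2, Ccl5 and Ccl7, the NF-kB genes Relb, Nfkb2, Nfkbie and Bcl3, the interferon-stimulated genes Gbp2, Gbp3, Gbp6, Ifi47 and Irf1, the immunoproteasome genes Psmb8 and Psmb10, and Birc3, Casp4, Tlr2 and Dtx3l, the last named after its values were seen. Ccl5 averaged 1257 ± 407 in TNF and 32.5 ± 38.3 in control arrays (SD, n = 4 each), a log2 difference of 5.16 ± 0.46 (SE), with a limma adjusted p of 9.9079e-05. Ccl2 averaged 2792 ± 1012 in TNF and 195 ± 142 in control arrays (SD, n = 4 each), a difference of 4.0 ± 0.54 (SE), limma adjusted p 0.00281. Tlr2 averaged 1222 ± 241 and 407 ± 72, a difference of 1.56 ± 0.18 (limma adjusted p 0.000732). Tnfaip3, at 1.20 ± 0.25, passed with the replicate block only (limma adjusted p 0.0765 without it and 0.00035 with it), as did Vcam1, at 1.70 ± 0.37 (0.088 and 1.7344e-05) and Tnfaip2, at 1.73 ± 0.61 (0.621 and 5.8958e-05). Sele did not pass either way, at 0.04 ± 1.04 (limma adjusted p 1.00, and 0.956 with the block), with 238 ± 321 in TNF and 213 ± 285 in control arrays (SD, n = 4 each). Gem and Il15ra did not pass either, at 0.65 ± 0.39 and -0.03 ± 0.27 (limma adjusted p with the block 0.174 and 0.962). Egr3 fell with the replicate block, at -0.93 (limma adjusted p 0.00313, and 0.69 without the block). Each SE above is from the fit without the block. With the block the SE was 0.17 for Tnfaip2, 0.15 for Vcam1 and 0.22 for Sele.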

How the data were processed

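The deposited values are linear signal intensities of 45101 probe sets, made by the authors with GCOS 1.4 per the submitters' processing notes. The sources used here do not give the summarization or background correction. Each array has a trimmed mean of 500.0 (2% removed at each end), so signals were used without further normalization. Control probe sets (64) were left out, and 34945 probe sets carry 1 gene symbol, 932 several and 9160 none listed. Unnamed or ambiguous probe sets above the median numbered 2915, of which 84 were at least 2-fold higher and 28 lower at 2 h.

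A gene was represented by its probe set with the highest mean log2 signal over the 21 arrays. Differences are in log2(signal + 10.1), the pseudocount being the 10th percentile of signals at 24 h. At 24 h genes above their array median on at least 3 of 15 arrays entered a limma 3.58.1 fit under R 4.3.3 (1 fit of 15 arrays, variance trend, Benjamini-Hochberg adjustment). The fit without a block was also run on simulated data. These held no effect of the replicate number, so they cannot show how that fit performs on the real arrays. Same-numbered arrays at 24 h correlated at 0.46 to 0.81 after removal of group means, and others at -0.58 to 0.21, so the numbers, taken from the sample titles, pair the arrays.

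The named genes were the 25 largest differences upward and 10 downward, list genes at least 2-fold different, up to 4 genes per list and TNF pathway genes. The members, lists and tests were chosen with earlier results of these data known.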

Additional observations from a re-analysis of the deposited data

Results flagged for a closer look

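Among the 25 genes with the largest differences upward at 2 h, 50 groups of 4 arrays at 24 h (TNF and control) were checked for an array far from the other 3, and 5 were found. For independent, normally distributed values the rule would flag about 1 in 20 groups. Its rate on these linear signals was not tested, so the 5 are not shown to be an excess. Ccl20 was 19.3 in the TNF array numbered 0, against 26 to 27 in the others. In the control array numbered 0, Chst15 was 60.2 against 20.9 to 22.3, Sele was 637.1 against 38.2 to 117.7, and Ccl5 was 89.8 against 10.1 to 17.0. Slc2a4 was 291.0 in the control array numbered 3, against 138.3 to 153.9. In 4 of the 5 the distant array carries the number 0, as do both 2 h arrays.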

How the results depend on the processing

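The count of 181 higher genes was 88 with both arrays above their median, 744 without a filter, 79 with the higher array above 4 times its median (chosen after seeing the data), 497 at 1.5-fold and 59 at 3-fold, and the other settings gave 122 to 203. The count of 73 lower genes was 35 with a pseudocount of 50, 11, 509 and 6 under the same 3 filters, 319 at 1.5-fold and 22 at 3-fold, and 71 to 87 otherwise. With both arrays above their median 81 genes exceeded every control array. The share of higher genes with agreeing probe sets was 91.3% to 96.6%. Scaling arrays to equal medians moved the median difference of all genes to -0.10 from -0.04. Of the 75 named genes past 2-fold, Dusp16, Egr3, Fosl1, Ifrd1, Nfkbiz, Nkd2, Nr4a2, Ptx3 and Sfrp5 lost it under some setting, and Sfrp5 was 0.13 on its probe set brightest at 2 h.

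At 24 h the replicate block, which pairs same-numbered arrays, gave 380 genes higher and 360 lower, and 343 and 141 on arrays scaled to equal medians. The fits with arrays left out used no block, so leaving out 1 array also left its pair incomplete. Leaving out 1 array gave 21 to 52 higher and 0 to 1 lower. Without the 3 arrays numbered 0 (chosen after seeing the data), 60 were higher and 2 lower. Without the block the calls of Birc3, Gbp6 and Nfkbie were each lost on leaving out any of 6 of the 8 arrays. With the block and all arrays these genes passed (limma adjusted p 0.0004 for Birc3 and 0.0019 for Gbp6). Each was higher with TNF in all 4 pairs. For Sele the 24 h difference was -0.78 to 0.82 with 1 array left out and -0.0020 without the arrays numbered 0. For Il15ra it was -0.23 to 0.20 with 1 array left out and 0.0076 on scaled arrays, with or without the block. The cause of these changes was not tested, beyond the stricter or looser limits named.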
